A study of Mus musculus with 24 samples.

Results

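The genes described here are the kinases, phosphatases, phosphodiesterases, cyclases and G protein subunits that carry or end cyclic nucleotide and calcium signals, taken by gene symbol from an RNA sequencing table of 8 mouse tissues. The rule took symbols of the calmodulin-dependent kinase, protein kinase A, AMP-activated kinase, protein kinase C and protein kinase G genes, of the subunits of protein phosphatases 1 to 6, of the phosphodiesterases, adenylyl cyclases, A-kinase anchoring proteins and calmodulins, and of the heterotrimeric G protein subunits and regulators of G protein signalling. It found 137 of the 7493 genes in the table and used no measured value. By symbol alone it also took genes that are no second messenger enzyme: CAMKMT, a methyltransferase that modifies calmodulin, CAMK2N1 and CAMK2N2, inhibitors of calmodulin-dependent kinase II, RGS7BP, a membrane anchor of RGS7 family proteins, PDE4DIP, a scaffold of phosphodiesterase 4D, PDE6D, a carrier of prenylated proteins, and PDE12, which degrades short RNA.

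Brain, aorta, heart, kidney, liver, lung, spleen and stomach of SENCR-BAC transgenic mice were sampled, with 3 libraries from each tissue and 24 in all. Every group carried the same transgene, a bacterial artificial chromosome that holds SENCR, a human long non-coding RNA, and the labels name no animals without it, no strain and no age. The design text states biological triplicates without saying which libraries came from the same animal, so p-values measure the spread between these libraries. Values were deposited as FPKM (fragments per kilobase of gene, scaled to the library's total) on a human genome, so that a mouse gene was counted only through stretches alike in both species, and levels were compared between tissues within a gene and not between genes.

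Receptors coupled to G proteins change the activity of adenylyl cyclases and phospholipase C, and so the amounts of cAMP, diacylglycerol and calcium in the cell. cAMP activates protein kinase A, cGMP activates protein kinase G, and calcium acts through calmodulin on calmodulin-dependent kinases and on the phosphatase calcineurin. Phosphodiesterases and phosphatases end these signals, and in neurons calmodulin-dependent kinase II and calcineurin have opposed, well-studied roles at synapses, while in smooth muscle protein kinase G and myosin phosphatase relax the cell.

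Read numbers were recovered from the steps between FPKM values, 193900 to 642307 per library. On average most were in brain (580749 to 642307) and fewest in liver (193900 to 215012), and spleen had the widest spread (384992 to 607938). Replicates correlated at r = 0.949 to 0.973 across genes. The summed level of 10 neuron markers, all in the table, was 6444 to 7659 FPKM in brain and at most 52.6 FPKM in any other library. The 6 cardiomyocyte markers in the table of 7 summed to 48370 to 58684 FPKM in heart, against 925 to 1240 FPKM in lung and at most 96.0 FPKM elsewhere. The 5 smooth muscle markers of 7 summed to 222 to 305 FPKM in aorta and 193 to 254 FPKM in stomach, where LMOD1 was listed at 0, against 3.94 to 57.8 FPKM in the remaining tissues. For the liver label, the 6 hepatocyte markers, all in the table, summed to 2071 to 2412 FPKM in liver and at most 41.7 FPKM elsewhere, but APOA1 and TTR were listed at 0 in all 3 liver libraries. The 4 kidney tubule markers of 6 summed to 1011 to 1978 FPKM in kidney and at most 9.36 FPKM elsewhere. In lung, NKX2-1, the only lung epithelium marker of 6 in the table, had 207 to 225 FPKM. In spleen, the 3 leukocyte markers of 7 in the table summed to 133 to 272 FPKM, with CD3E listed at 0 in all 3 libraries. Stomach rested on ATP4A alone of 6 markers, at 0.918 to 4.85 FPKM. The 6 skeletal muscle markers of 8 were low, at up to 77.4 FPKM in lung, 47.1 FPKM in stomach and 33.1 FPKM in heart. So were the 2 endothelial markers of 5, at 13.7 to 20.5 FPKM in lung and at most 7.79 FPKM elsewhere. None of the 5 adipocyte and 5 pancreas acinar markers was in the table, so fat and pancreas could not be assessed.

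Of the 137 genes, 93 had at least 1 FPKM in at least 3 libraries and were tested, together with 4260 genes in all. The other 44 had 1 to 64 reads over all 24 libraries, 36 of them 10 or fewer, and were not tested. Tests used limma on log2(FPKM + 1), with Benjamini-Hochberg adjustment over the 4260 genes, and a call needed both a difference of 1 or more on that scale and an adjusted p below 0.05. 6 of the 93 passed the filter through a single tissue (CAMK2A, GNG3, PDE1B and PPP2R2C through brain, PDE4DIP through heart, PDE1A through kidney), so a difference was built into their passing. A further 7 would not have passed without their highest tissue (ADCY2 and CAMK2B without brain, PPP1R12B, PPP1R14C and PPP1R3A without heart, CALM3 without spleen, PDE4B without lung), as only 1 or 2 other libraries reached 1 FPKM. Levels of 79 of the 93 differed between tissues by the moderated F test (84.9%, against 77.6% of all genes tested).

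More of the tested genes had their highest level in brain than in any other tissue. Against the mean of the other 7 tissues, 42 of the 93 were called higher in brain (45.2%, against 23.9% of all genes tested), and 6 were called lower (6.45%, against 10.5%). Of the 42, 21 were called higher in brain than in each other tissue (22.6%, against 13.2%). The 42 include CAMK2A, GNG3, PDE1B and PPP2R2C, which passed the filter through brain alone, and ADCY2 and CAMK2B, which would not have passed without brain. The median difference in brain was 0.79 over the 93 genes and -0.02 over all genes. By the order of tissue means, 41 of the 93 had their highest level in brain (44.1%, against 24.2% of all genes). Brain libraries were also the deepest on average, and the part of depth in these calls was not tested. Spleen replicate 3 (607938 reads) was deeper than brain replicates 1 and 3. With limma voom on the recovered reads, which also scales to library totals, 45 were called higher in brain (48.4%, against 26.7% of all genes) and 14 lower (15.1%, against 21.5%). A pseudocount of 5 FPKM left 26 higher (28%, against 14.9%). The neuron marker sum was also far higher in brain, and its part in these calls was not tested. In bulk tissue, fewer cells of a type and less RNA per cell cannot be told apart.

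**Figure D1:**
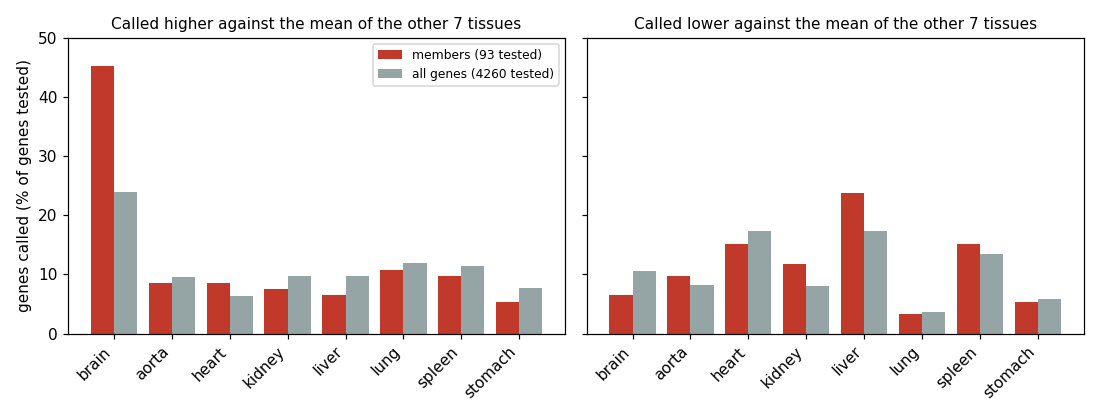
Percent of genes called higher (left) and lower (right) in each tissue against the mean of the other 7 tissues, for the 93 members tested (red) and for all 4260 genes tested (grey). Brain stands apart on the left, with 45.2% of members and 23.9% of all genes, and in liver 23.7% of members and 17.3% of all genes were called lower.

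In the calcium and calmodulin branch most genes were highest in brain. Among its 15 tested genes (9 of the calmodulin-dependent kinase group, 3 calmodulins and 3 calcineurin subunits) 12 were called higher in brain, where 23.9% of all genes were, and 10 were higher there than in each other tissue, as 13.2% of all genes were. These counts include CAMK2A and CAMK2B, which would not have passed the filter without brain, so a brain difference was built into their being tested. The median brain difference was 2.16 over these 15 genes and 0.57 over the other 78, of which 30 were called higher in brain and 11 above each other tissue.

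Calmodulin-dependent kinase II, the kinase that calcium entry activates at synapses, is built from alpha, beta, gamma and delta subunits. CAMK2A, the alpha subunit of excitatory forebrain neurons, had 35.8, 109 and 46.9 FPKM in the 3 brain libraries and was listed at 0 in 19 of the 21 other libraries. The exceptions were 0.544 FPKM in heart replicate 2 and 0.374 FPKM in spleen replicate 1, a single read each, against 604 reads in brain. Its brain difference was 5.80 ± 0.22 (SE, adjusted p = 3.32e-15), and brain replicate 2 stood above the other two brain libraries. CAMK2B, the beta subunit, had 300.2, 302 and 315 FPKM in brain and 0 to 1.65 FPKM in the other 7 tissues. With a difference of 8.02 ± 0.23 (adjusted p = 7.97e-17), it had the largest brain difference of all 93 genes, and the groups were far apart.

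The gamma subunit CAMK2G had a broader pattern. It had 252, 269 and 245 FPKM in brain, 92.5, 116 and 124 FPKM in aorta, 67.3, 42.2 and 48.2 FPKM in heart and 8.19 to 41.4 FPKM in the remaining tissues. The level in brain was 3.07 ± 0.19 above the mean of the others (adjusted p = 1.44e-11), and aorta, next in order, was called higher as well (1.69 ± 0.19, adjusted p = 8.22e-07). Liver, with 8.19, 16.8 and 8.83 FPKM, was called lower (-2.02 ± 0.19, adjusted p = 4.31e-08). The delta subunit CAMK2D, which in mammals is the main form in heart muscle, had no brain call. It had 8.91, 7.01 and 6.61 FPKM in stomach, 2.36, 4.91 and 9.24 FPKM in brain and 6.16, 0 and 3.13 FPKM in heart, and kidney and liver held 0 to 0.855 FPKM. Stomach was called higher (1.56 ± 0.43, adjusted p = 0.00983), and kidney (-1.62, adjusted p = 0.00603) and liver (-1.68, adjusted p = 0.0031) lower. The stomach call was lost without stomach replicate 1 (1.44, adjusted p = 0.0598), and stomach and brain libraries overlapped.

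Both inhibitors of calmodulin-dependent kinase II followed brain too. CAMK2N1 had 1187, 1078 and 1161 FPKM in brain, 343, 341 and 303 FPKM in kidney and 321, 388 and 284 FPKM in liver, against 12.02 to 148 FPKM in the other tissues. It was called higher in brain (3.60 ± 0.20, adjusted p = 2.36e-12), in kidney (1.55 ± 0.20, adjusted p = 4.59e-06) and in liver (1.55 ± 0.20, adjusted p = 2.85e-06). The lowest levels were 27.1, 37.96 and 12.02 FPKM in spleen (-2.75, adjusted p = 1.59e-09) and 31.4, 34.6 and 30.6 FPKM in heart (-2.24, adjusted p = 2.56e-08). No kinase II subunit gene was called higher in kidney or liver. CAMK2N2 had 313, 225 and 303 FPKM in brain and 0 to 11.9 FPKM elsewhere, a difference of 6.73 ± 0.53 (adjusted p = 6.37e-10). Kidney had 4.15, 8.59 and 11.9 FPKM of it, and stomach (0, 2.07 and 0 FPKM) was called lower than a mean that includes brain. With brain left out of that mean the difference was -0.99 (adjusted p = 0.216) and the call was lost, as it was without stomach replicate 1 (-1.67, adjusted p = 0.0743) and without stomach replicate 3 (-1.67, adjusted p = 0.074).

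**Figure D2:**
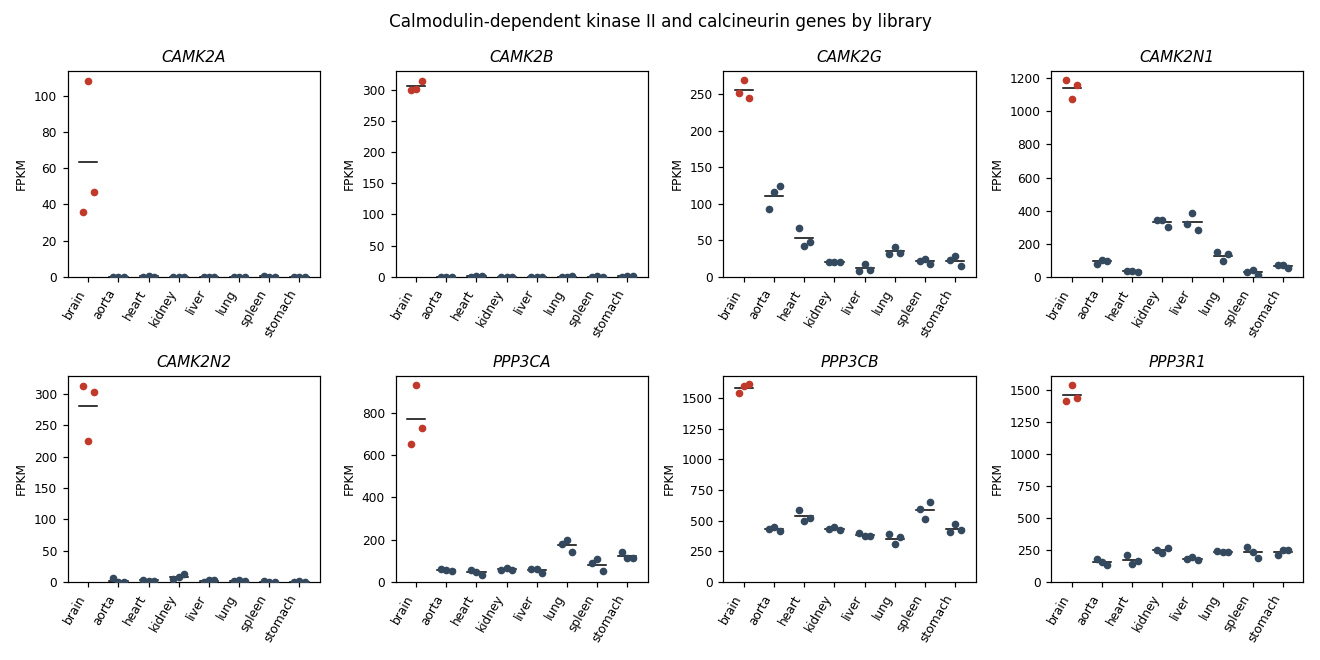
FPKM of calmodulin-dependent kinase II subunit genes, their inhibitors and calcineurin subunit genes in each library (points) with the mean of the 3 libraries (line), brain in red at the left and the other 7 tissues in dark blue. CAMK2A and CAMK2B lie near 0 outside brain, while CAMK2G, CAMK2N1 and the calcineurin genes have levels above 0 in all 8 tissues.

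Other kinases of the calmodulin-dependent group were low. CAMKK1, an upstream activator of calmodulin-dependent kinases I and IV, had 6.13, 6.24 and 2.63 FPKM in brain and 0 to 2.69 FPKM elsewhere (2.16 ± 0.31, adjusted p = 4.4e-06). CAMK1 had 8.97, 16.7 and 15.96 FPKM in lung and 7.12, 10.1 and 9.96 FPKM in brain, and was listed at 0 in all 3 liver libraries. It was called higher in lung (2.19 ± 0.51, adjusted p = 0.00235) and in brain (1.58 ± 0.51, adjusted p = 0.0135), and the libraries of both tissues overlapped. The brain call was lost without brain replicate 2 (1.5, adjusted p = 0.0637) and without brain replicate 3 (1.51, adjusted p = 0.063). CAMK1D (27 reads in all), CAMK4, CAMK1G and CAMKV (1 read each) were not tested.

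Calmodulin, the calcium sensor upstream of these enzymes, is encoded by several genes that give the same protein, and reads of their near-identical coding stretches can be assigned to another copy. CALM2 had 3735, 4293 and 3719 FPKM in brain, 1739, 1737 and 1884 FPKM in stomach and 426, 461 and 481 FPKM in heart. Brain was 2.11 ± 0.07 above the mean of the others (adjusted p = 1.88e-16) and above each of them, and heart was lowest (-1.43 ± 0.07, adjusted p = 1.05e-12). CALM3 held only 5 reads over all libraries and no tissue difference was detectable (F test adjusted p = 0.439).

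Calcineurin, the calcium-activated phosphatase that acts on NFAT factors and at synapses, was highest in brain for all 3 of its subunit genes in the table. The catalytic subunit gene PPP3CA had 652, 929 and 728 FPKM in brain, 180.3, 197 and 142 FPKM in lung, 140.4, 112 and 111 FPKM in stomach and 34.7 to 108 FPKM in the other 5 tissues. The second catalytic gene, PPP3CB, had 1543, 1593 and 1613 FPKM in brain and 305 to 649.6 FPKM elsewhere. PPP3R1, the calcium-binding regulatory subunit, had 1415, 1538 and 1440.0 FPKM in brain and 132 to 277 FPKM elsewhere. No library of another tissue reached the brain range of any of the 3 genes. Brain differences were 3.32 ± 0.18 for PPP3CA (adjusted p = 1.29e-12), 1.83 ± 0.07 for PPP3CB (adjusted p = 1.03e-14) and 2.83 ± 0.11 for PPP3R1 (adjusted p = 9.91e-15). All 3 were called above each other tissue, and PPP3CA was also called lower in heart (-1.29, adjusted p = 7.65e-06).

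Among the G protein alpha subunits, GNAO1 separated the tissues most. GNAO1, the Go alpha subunit that in neurons couples receptors to calcium and potassium channels, had 341, 405 and 376 FPKM in brain. Next came aorta with 16.6, 21.7 and 17.8 FPKM, heart with 11.03, 17.03 and 10.1 FPKM, stomach with 9.23, 12.6 and 12.3 FPKM and lung with 13.3, 6.68 and 4.33 FPKM. Kidney (0, 0.766 and 0.353 FPKM) and spleen (0.938, 0 and 0.202 FPKM) were close to 0, and in liver it was listed at 0 in all 3 libraries. The brain difference was 6.33 ± 0.25 (adjusted p = 7.38e-15), aorta was called higher (1.46, adjusted p = 0.000105), and kidney, liver and spleen were called lower (-2.96, -3.44 and -2.98). Neuron markers summed to 52.6 FPKM in aorta replicate 1, against 6.53 and 0.998 FPKM in replicates 2 and 3, and their part in the aorta result was not tested.

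The remaining alpha subunits had smaller and different patterns. GNAQ, which activates phospholipase C beta, had 50.7, 48.04 and 56.8 FPKM in brain and was called higher there (1.67 ± 0.21, adjusted p = 7.71e-07), with lung at 34.2, 31.8 and 30.4 FPKM and stomach at 31.4, 42.4 and 25.01 FPKM. GNAI2, an inhibitor of adenylyl cyclase that is abundant in leukocytes, ran the other way. It had 43.4, 96.9 and 50.3 FPKM in lung, 42.6, 54.5 and 63.7 FPKM in spleen and 7.22, 7.03 and 6.52 FPKM in brain, and brain lay below every library of lung, spleen, aorta, stomach, kidney and heart. It was called higher in lung (1.79 ± 0.31, adjusted p = 0.000173) and spleen (1.59 ± 0.31, adjusted p = 0.000343), and lower in brain (-1.57 ± 0.31, adjusted p = 0.000232) and liver (-1.29 ± 0.31, adjusted p = 0.00194), where the call was lost without liver replicate 1 (-0.69, adjusted p = 0.0609). The leukocyte marker sum was also highest in spleen (133 to 272 FPKM) and lung (95.1 to 135 FPKM) and lowest in brain (1.68 to 3.63 FPKM). In liver, where GNAI2 was called lower, that sum was 21.1 to 50.1 FPKM, above every library of aorta, heart, kidney and stomach. The part of leukocyte markers in the GNAI2 result was not tested.

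GNA12, an alpha subunit of the G12 family, was called higher in liver (66.2, 85.2 and 68.4 FPKM) with a difference of 1.36 ± 0.16 (adjusted p = 1.17e-06). Stomach held 15.97, 12.9 and 12.5 FPKM of it and was called lower (-1.30, adjusted p = 4.67e-06). GNA13, its close relative, was called higher in kidney (24.4, 29.9 and 26.5 FPKM, a difference of 1.03 ± 0.25, adjusted p = 0.00325) and lower in aorta (8.59, 5.101 and 6.29 FPKM, -1.13, adjusted p = 0.00151). Both fell just short of a difference of 1 without 1 library, aorta without aorta replicate 2 (-0.97, adjusted p = 0.0214) and kidney without kidney replicate 2 (0.95, adjusted p = 0.028), lung replicate 2 (0.99, adjusted p = 0.00347) or stomach replicate 3 (0.97, adjusted p = 0.00176). GNAS, the stimulatory subunit of adenylyl cyclase, was far more even, with 1881, 1575 and 1695 FPKM in brain, 1551, 1464 and 1355 FPKM in aorta and 673, 775 and 589.9 FPKM in spleen, the lowest tissue. It differed between tissues by the F test (adjusted p = 2.37e-09), but no tissue reached a difference of 1. Antisense and overlapping transcripts lie at the GNAS locus, and their reads may be included, because it is not known whether counting used the strand.

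Beta and gamma subunits act as a dimer, and their genes had different patterns. GNB1 had 212, 290.2 and 259 FPKM in lung, 197, 221 and 189 FPKM in brain and 178, 165 and 169 FPKM in aorta, against 42.98, 44.1 and 39.5 FPKM in heart and 51.1, 36.3 and 44.7 FPKM in liver. It was called higher in lung (1.55 ± 0.15, adjusted p = 2.42e-07) and in brain (1.18 ± 0.15, adjusted p = 1.37e-06), and lower in heart (-1.37) and liver (-1.31). GNG5, a widely expressed gamma subunit, had the largest negative brain difference of the 93 genes. It had 53.4, 17.4 and 29.2 FPKM in brain, against 75.5 to 552 FPKM in the other tissues, a difference of -3.12 ± 0.28 (adjusted p = 6.53e-09), and all brain libraries lay below all others. Stomach, with 466, 396 and 552 FPKM, was called higher (1.35 ± 0.28, adjusted p = 0.00112). GNG3, a gamma subunit of neurons, had 1.79, 24.3 and 7.002 FPKM in brain from 20 reads and was listed at 0 in the other 21 libraries (3.05 ± 0.33, adjusted p = 8.33e-08). That difference was built into its passing the filter.

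Of the regulators of G protein signalling, which speed the return of alpha subunits to the inactive state, only RGS12 and the anchor RGS7BP were abundant enough to test. RGS12 had 14.8, 10.8 and 17.2 FPKM in lung, 3.11, 3.22 and 8.93 FPKM in spleen and 0 to 4.102 FPKM in the other 6 tissues. Lung was called above each other tissue, with a difference of 2.40 ± 0.27 from their mean (adjusted p = 1.49e-06), and its libraries overlapped with none. RGS7BP had 38.4, 44.8 and 40.1 FPKM in brain, 2.09, 6.55 and 7.32 FPKM in aorta and 0 to 2.47 FPKM elsewhere, with differences of 4.67 ± 0.38 in brain (adjusted p = 1.04e-09) and 1.40 ± 0.38 in aorta (adjusted p = 0.00661). The aorta call was lost without aorta replicate 2 (1.21, adjusted p = 0.0563) and without aorta replicate 3 (1.14, adjusted p = 0.0699). RGS6, with 64 reads in all, was the deepest of the 6 regulators of G protein signalling that were not tested.

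**Figure D3:**
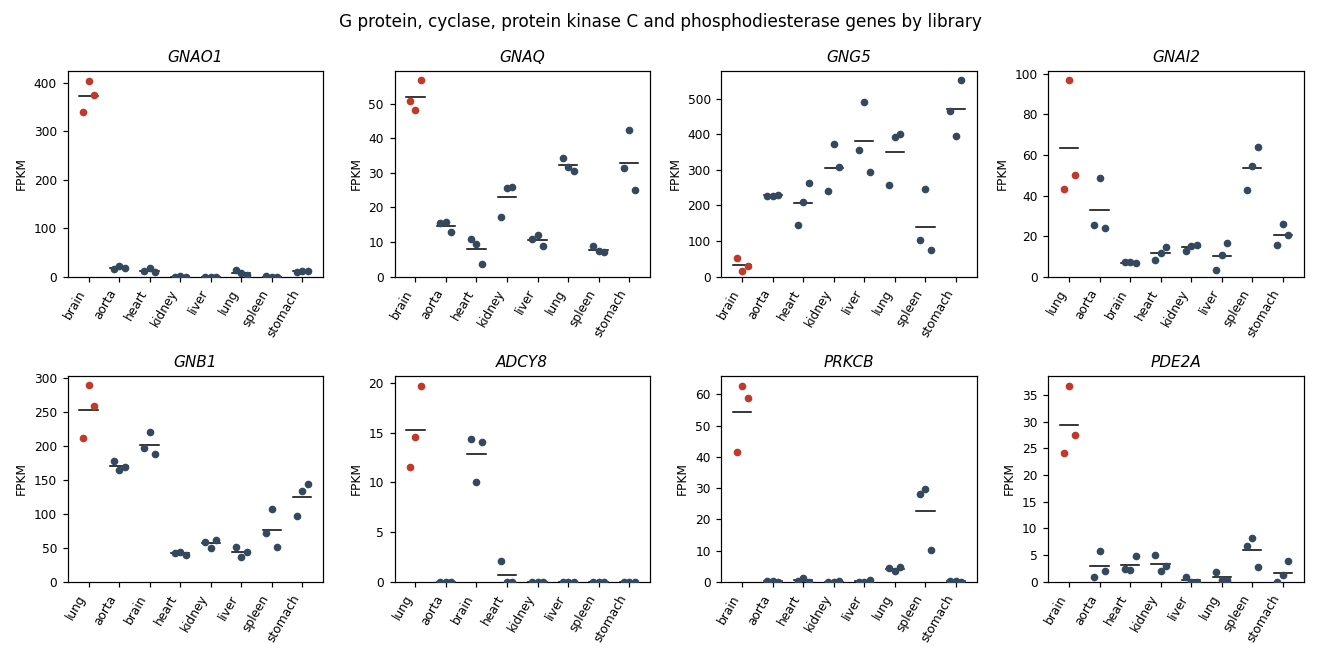
FPKM of G protein subunit, adenylyl cyclase, protein kinase C and phosphodiesterase genes in each library (points) with the mean of 3 libraries (line). The tissue at the left of each panel, in red, is brain for GNAO1, GNAQ, GNG5, PRKCB and PDE2A, and lung for GNAI2, GNB1 and ADCY8. GNG5 is lowest in brain, and ADCY8 has its values above 0 in lung, brain and heart replicate 1.

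Adenylyl cyclases, which make cAMP, differed in where they were highest. ADCY5, the form of striatal neurons and heart, had 17.5, 16.7 and 18.4 FPKM in aorta, 6.76, 7.73 and 5.64 FPKM in brain and 2.92, 1.603 and 1.65 FPKM in heart, and was listed at 0 in liver. Aorta was above each other tissue, with a difference of 3.18 ± 0.27 (adjusted p = 2.06e-08), and brain was called higher as well (1.72 ± 0.27, adjusted p = 1.74e-05). The aorta and brain libraries did not overlap (1.27 ± 0.36 for aorta minus brain, adjusted p = 0.00623). ADCY8, a cyclase that calcium and calmodulin stimulate, had 11.5, 14.5 and 19.7 FPKM in lung and 14.4, 10.04 and 14.1 FPKM in brain. Outside these it was above 0 only in heart replicate 1 (2.13 FPKM). It was called higher in lung (3.37 ± 0.24, adjusted p = 3.61e-09) and brain (3.13 ± 0.24, adjusted p = 5.89e-10), and lung and brain overlapped (0.22 ± 0.32 for lung minus brain, adjusted p = 0.632). Neuron markers summed to 7.26 to 23.4 FPKM in lung and 6444 to 7659 FPKM in brain, and their part in these calls was not tested.

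ADCY2 and ADCY4 rested on few reads. ADCY2 had 2.59, 0.702 and 2.03 FPKM in brain, 0.326, 1.21 and 0.312 FPKM in lung and was listed at 0 elsewhere, and brain was called higher (1.31 ± 0.16, adjusted p = 6.07e-07). ADCY4 had 9.93, 0.543 and 3.36 FPKM in lung and 0.649, 1.88 and 1.95 FPKM in aorta, and lung was called higher (1.67 ± 0.36, adjusted p = 0.00123), with lung replicate 1 far above the others. Without that library the difference was 0.98, adjusted p = 0.0325, just under 1. ADCY1, ADCY3 and ADCY6 held 4, 4 and 21 reads and were not tested.

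Protein kinase A, the tetramer that cAMP opens, was represented by 3 genes. PRKACA, its main catalytic subunit, had 46.6, 37.98 and 47.3 FPKM in heart, 33.1, 49.8 and 24.5 FPKM in brain and 12.2, 14.4 and 5.27 FPKM in spleen. Heart was called higher (1.18 ± 0.26, adjusted p = 0.00101) and spleen lower (-1.16 ± 0.26, adjusted p = 0.00117), while heart and brain overlapped. The spleen call was lost without spleen replicate 3 (-0.76, adjusted p = 0.0351). PRKAR2B, a type II regulatory subunit, had 6.13, 5.77 and 19.9 FPKM in spleen and 11.9, 2.87 and 2.38 FPKM in aorta, and was listed at 0 in heart. Spleen was called higher (2.17 ± 0.47, adjusted p = 0.00088) and heart lower (-1.63 ± 0.47, adjusted p = 0.00842). PRKAR1A, the type I regulatory subunit that most cells need, held only 24 reads in all and had no detectable difference (F test adjusted p = 0.349), so a value near 0 in this table does not mean that a tissue lacks the transcript.

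The target of this kinase in the nucleus is CREB, whose palindromic site, the cAMP response element, reads TGACGTCA. RefSeq promoters on GRCm38.p6 were found for 111 of the 137 genes, and the 8-base site was searched on both strands (it is its own reverse complement) in the 250 bases before the annotated start. It was present in 3 of the 111 (2.7%), against 177 of 5492 genes of the whole table with a promoter (3.22%) and 478 of 27025 genes in the promoter set (1.77%). None of the 33 genes called higher in brain with a promoter held these letters in that window. The genes with the site, shown in capitals with 11 bases on each side, were the regulatory subunit gene of protein kinase A and a catalytic and a regulatory subunit gene of protein phosphatase 2A. Each lies on the plus strand, and the middle of the site was 45 bases before the start for Prkar1a, 22 for Ppp2ca and 17 for Ppp2r2d. In GENCODE M21, the shown stretches of Ppp2ca and Ppp2r2d lie within an annotated exon and that of Prkar1a lies outside any exon.
Prkar1a, chr11:109650889-109650918: gcgaggcgcatTGACGTCAgcagccgaacg
Ppp2ca, chr11:52098787-52098816: tgacgctggcgTGACGTCAccacgccgggc
Ppp2r2d, chr7:138846327-138846356: gcggagggggaTGACGTCAtccggcggggc

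A-kinase anchoring proteins hold protein kinase A near its substrates. AKAP6, which anchors it at the nuclear envelope of cardiac myocytes and neurons, had 2.48, 3.296 and 4.33 FPKM in brain, 4.43, 1.63 and 3.08 FPKM in heart, 0.217, 0.419 and 0.762 FPKM in aorta and 0 to 0.136 FPKM in the other 5 tissues. Brain (1.74 ± 0.17, adjusted p = 1.4e-08) and heart (1.57 ± 0.17, adjusted p = 2.4e-07) were called higher. They overlapped, with a difference of 0.15 ± 0.22 for brain minus heart (adjusted p = 0.647). AKAP8, a nuclear anchor, was called higher in brain on 48 reads (1.15, adjusted p = 0.0227), and lost that call without brain replicate 1 (1.03, adjusted p = 0.105) and without brain replicate 3 (1.04, adjusted p = 0.103). AKAP8L differed by the F test with no tissue at a difference of 1, AKAP10 did not pass it (adjusted p = 0.102), and the other 5 anchoring proteins were not tested.

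Phosphodiesterases break down cAMP and cGMP, and 12 of the 16 genes in the table were tested. Of these, 5 were called higher in brain (against 23.9% of all genes) and 3 were above each other tissue there (against 13.2%). The median brain difference over the 12 was 0.34. PDE2A, which cGMP stimulates, had 24.1, 36.7 and 27.4 FPKM in brain and 0 to 8.13 FPKM elsewhere, a difference of 3.35 ± 0.41 (adjusted p = 6.43e-07). It was called lower in liver (-1.87, adjusted p = 0.000914) and lung (-1.29, adjusted p = 0.021), the lung call being lost without lung replicate 2 (-1.13, adjusted p = 0.121) and without lung replicate 3 (-1.13, adjusted p = 0.118). PDE1B, stimulated by calcium and calmodulin, had 6.57, 7.68 and 2.65 FPKM in brain and single reads in aorta and spleen (2.57 ± 0.19, adjusted p = 2.11e-10), a difference built into its passing the filter. PDE7B, a cAMP-specific form, had 1.92, 4.62 and 2.19 FPKM in brain and 0 to 2.61 FPKM elsewhere (1.62 ± 0.30, adjusted p = 0.000101). PDE4D was called higher in brain at 2.31, 2.41 and 3.65 FPKM (1.17, adjusted p = 0.00243). PDE8B had 2.903, 6.42 and 3.79 FPKM in brain and 2.03, 1.13 and 4.67 FPKM in lung, and was called higher in both (1.98 and 1.25), with overlapping libraries, and lung fell under a difference of 1 without lung replicate 3 (0.87, adjusted p = 0.0366).

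Other phosphodiesterases stood highest outside brain. PDE5A, the cGMP-specific form known from vascular smooth muscle, had 7.101, 6.86 and 5.71 FPKM in lung, 2.53, 2.74 and 4.43 FPKM in aorta and 0 to 1.97 FPKM elsewhere. It was called higher in lung (2.34 ± 0.26, adjusted p = 1.09e-06) and aorta (1.36 ± 0.26, adjusted p = 0.000376). Every lung library was above every aorta library, but lung minus aorta missed the threshold (0.86 ± 0.35, adjusted p = 0.103). PDE1A, related to PDE1B, had 4.12, 4.26 and 4.86 FPKM in kidney and 0 to 0.934 FPKM elsewhere. Kidney was above each other tissue (2.11 ± 0.15, adjusted p = 1.16e-09), a difference built into its passing the filter. PDE7A, abundant in lymphocytes, had 4.86, 3.96 and 4.39 FPKM in spleen and 0 to 2.56 FPKM elsewhere (1.5 ± 0.24, adjusted p = 4.01e-05), with no overlap. The leukocyte marker sum was also highest in spleen, and its part in this result was not tested. The scaffold gene PDE4DIP had 2.799, 2.05 and 2.84 FPKM in heart and 0 to 0.23 FPKM elsewhere (1.76 ± 0.11, adjusted p = 5.29e-11), a difference also built into its passing the filter. PDE6D was called lower in kidney (1.803, 1.87 and 1.72 FPKM, -1.65, adjusted p = 0.0489), a call lost without any 1 of 16 of the 24 libraries, at -1.53 to -1.69 (adjusted p = 0.051 to 0.132).

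Protein kinase G and myosin phosphatase, which work together in the relaxation of smooth muscle, had their highest levels in aorta. PRKG1, the only protein kinase G gene in the table, had 23.5, 17.9 and 39.9 FPKM in aorta, 6.92, 11.7 and 11.3 FPKM in lung, 9.498, 4.17 and 3.48 FPKM in heart and 3.21, 7.63 and 1.74 FPKM in stomach. Aorta was above each other tissue, with a difference of 2.80 ± 0.33 (adjusted p = 1.3e-06), and lung was called higher as well (1.30 ± 0.33, adjusted p = 0.00424). PPP1R12A, the targeting subunit of myosin phosphatase in smooth muscle, had 398, 433 and 517 FPKM in aorta, 98.2, 127 and 50.7 FPKM in stomach, 91.2, 69.7 and 83.5 FPKM in spleen and 23.9 to 84.9 FPKM in the other 5 tissues. Aorta was again above each other tissue, with a difference of 3.02 ± 0.18 (adjusted p = 8.88e-11), and liver (-1.51) and heart (-1.03) were called lower. The heart difference was under 1 in size without heart replicate 2 (-0.93, adjusted p = 0.00264) and without stomach replicate 2 (-0.99, adjusted p = 5.36e-05). Smooth muscle markers summed to 222 to 305 FPKM in aorta and 193 to 254 FPKM in stomach, and their part in these calls was not tested. Between these tissues, aorta minus stomach was 2.37 ± 0.24 for PPP1R12A (adjusted p = 2.51e-07) and 2.52 ± 0.43 for PRKG1 (adjusted p = 0.000148).

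The striated muscle relative of that targeting subunit, PPP1R12B, was highest in heart. It had 5.08, 4.02 and 2.41 FPKM in heart, 0.692, 1.19 and 1.08 FPKM in brain and 0 to 0.729 FPKM in the other 6 tissues, and heart was above each other tissue (1.93 ± 0.16, adjusted p = 1.09e-08). PPP1R14C, an inhibitor of protein phosphatase 1 that protein kinase C potentiates, had 5.01, 3.53 and 2.905 FPKM in heart and 0 to 1.104 FPKM elsewhere (2.08 ± 0.15, adjusted p = 1.35e-09). PPP1R3A, which targets protein phosphatase 1 to glycogen in striated muscle, had 3.18, 1.89 and 3.23 FPKM in heart and was above 0 elsewhere only in lung replicate 3 (0.470 FPKM) and stomach replicate 1 (2.32 FPKM). Its heart difference was 1.78 ± 0.23 (adjusted p = 3.93e-06). Together with PDE4DIP these were the 4 genes called above each other tissue in heart, on 102 heart reads for PPP1R12B, 16 for PPP1R14C, 13 for PPP1R3A and 74 for PDE4DIP. None of the 4 would have passed the filter without heart, so a higher level there was built into their being tested. Cardiomyocyte markers summed to 925 to 1240 FPKM in lung, where PPP1R12B had 0.174, 0.729 and 0.334 FPKM, and their part in the heart calls was not tested.

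**Figure D4:**
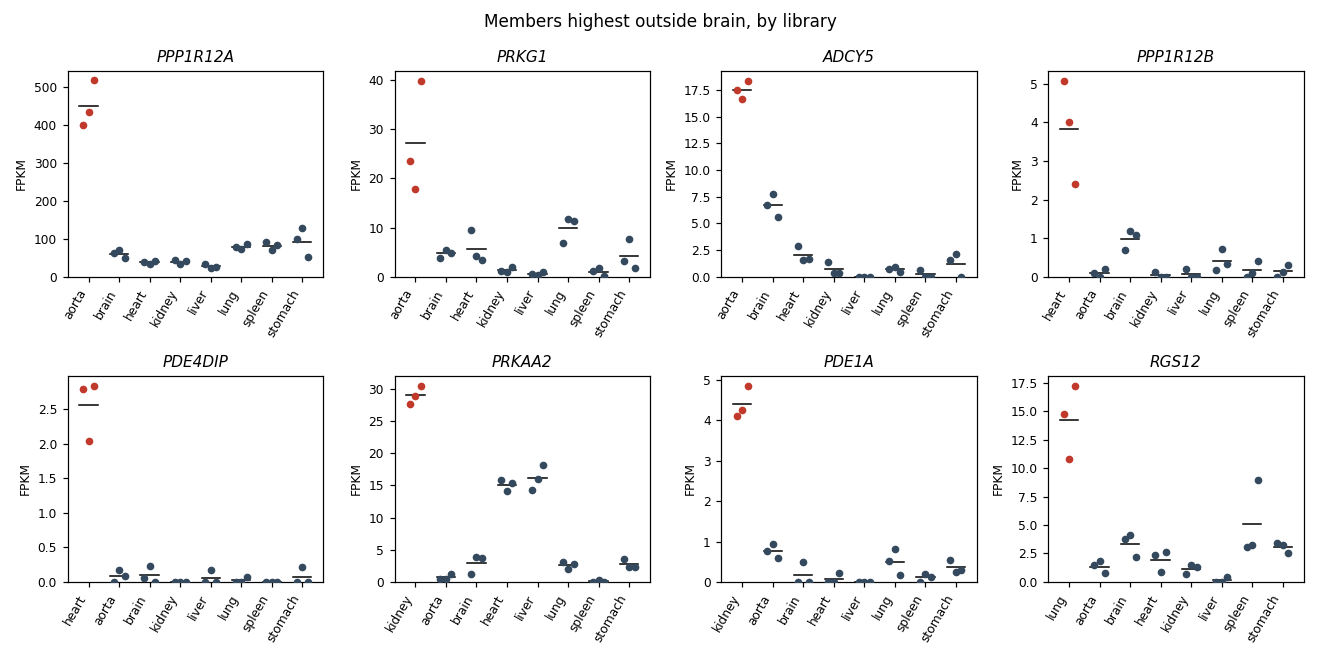
FPKM of members with their highest level outside brain, in each library (points) with the mean of 3 libraries (line). The tissue at the left of each panel, in red, is aorta for PPP1R12A, PRKG1 and ADCY5, heart for PPP1R12B and PDE4DIP, kidney for PRKAA2 and PDE1A, and lung for RGS12. The red points lie above all other points in every panel.

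Among the remaining genes of protein phosphatase 1, the catalytic subunits were broadly even. PPP1CB had 748, 827 and 748 FPKM in aorta and 342 to 691 FPKM elsewhere, and PPP1CC 715, 735 and 904 FPKM in spleen and 236 to 616 FPKM elsewhere. Aorta for PPP1CB (0.74, adjusted p = 4.97e-06) and spleen for PPP1CC (0.92, adjusted p = 3.53e-08) were highest, below a difference of 1. PPP1CA, the third isoform, held 8 reads in all, and reads shared between these similar genes may be split among them. PPP1R9B, spinophilin of dendritic spines, had 7.76, 6.65 and 9.595 FPKM in brain and was called higher there (2.14, adjusted p = 3.67e-06) and in lung (3.601, 5.26 and 2.46 FPKM, 1.06, adjusted p = 0.0099), the lung call being lost without lung replicate 2 (0.84, adjusted p = 0.0964). PPP1R3F, another glycogen-targeting subunit, had 11.6, 8.27 and 4.75 FPKM in brain, which was above each other tissue (2.29, adjusted p = 8.41e-06). PPP1R16B, a targeting subunit known from endothelium, had 3.31, 1.29 and 5.14 FPKM in kidney and 2.84, 1.07 and 1.62 FPKM in brain and was called higher in both (1.65 ± 0.23 in kidney, adjusted p = 1.3e-05, and 1.06 ± 0.23 in brain, adjusted p = 0.000638), with brain under 1 without brain replicate 1 (0.82, adjusted p = 0.0155). PPP1R14B, an inhibitor of the phosphatase, was listed at 0 in all 3 liver libraries and called lower there (-2.44, adjusted p = 0.00116), with kidney and spleen called higher. It was also called lower in brain, a call lost under 21 of 31 alternative fits (adjusted p = 0.00362 to 0.303). The kidney call was lost without kidney replicate 2 (1.45, adjusted p = 0.13) or 3 (1.36, adjusted p = 0.152), and the spleen call without spleen replicate 2 (1.27, adjusted p = 0.149) or 3 (1.23, adjusted p = 0.164).

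Protein kinase C, which diacylglycerol and calcium activate, had 9 genes in the table and 2 that could be tested. PRKCB had 41.7, 62.7 and 58.9 FPKM in brain, 28.1, 29.8 and 10.3 FPKM in spleen and 4.33, 3.52 and 4.92 FPKM in lung, and 0 to 1.39 FPKM in the other 5 tissues. Brain was above each other tissue (4.58 ± 0.29, adjusted p = 1.9e-11), and spleen was called higher too (3.05 ± 0.29, adjusted p = 5.69e-08). The beta form is known from B cells as well as neurons, and leukocyte markers were highest in spleen and lung, as given above; their part in the result was not tested. PRKCA had 3.33, 2.26 and 6.104 FPKM in brain and 3.58, 2.42 and 0.895 FPKM in stomach, with brain called higher (1.25 ± 0.33, adjusted p = 0.00363) although both tissues overlapped, and the call was lost without brain replicate 3 (0.94, adjusted p = 0.06). The other 7 genes held 1 to 14 reads.

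AMP-activated kinase, which senses AMP and enters the rule through its PRKA symbols, had 3 tested genes. None was called higher in brain, where 23.9% of all genes were, but 3 genes are too few to set apart from that share. PRKAA2, the alpha 2 catalytic subunit, had 27.7, 28.9 and 30.5 FPKM in kidney, 14.4, 16.01 and 18.2 FPKM in liver, 15.9, 14.2 and 15.3 FPKM in heart and 0 to 3.84 FPKM in the other tissues. Those 3 tissues were called higher, with differences of 2.83 ± 0.22 in kidney (adjusted p = 4.88e-09), 1.90 ± 0.22 in liver (adjusted p = 7.8e-07) and 1.80 ± 0.22 in heart (adjusted p = 1.93e-06). Kidney was above liver in every library (0.81 ± 0.29 for kidney minus liver, adjusted p = 0.0515, which missed the threshold), while liver and heart overlapped (0.09 ± 0.29 for liver minus heart, adjusted p = 0.967). Spleen (0, 0.229 and 0 FPKM, -2.67, adjusted p = 1.04e-08) and aorta (0.425, 0.41 and 1.28 FPKM, -1.94, adjusted p = 1.04e-06) were called lower. PRKAB1, a beta subunit, had 56.8, 22.5 and 53.9 FPKM in stomach, 23.8, 26.99 and 58.8 FPKM in spleen and 9.298, 1.94 and 7.699 FPKM in brain. Called higher were stomach (1.42 ± 0.37, adjusted p = 0.00694) and spleen (1.10 ± 0.37, adjusted p = 0.022), and called lower were brain (-1.69 ± 0.37, adjusted p = 0.000703) and aorta (-1.65 ± 0.37, adjusted p = 0.00164). The stomach call was lost without stomach replicate 1 (1.19, adjusted p = 0.0703) and without stomach replicate 3 (1.23, adjusted p = 0.0629), and the spleen call without spleen replicate 3 (0.70, adjusted p = 0.216). Without brain replicate 2 the brain difference was -1.12, adjusted p = 0.0269. PRKAG2, a gamma subunit, was called lower in spleen (13.2, 7.596 and 5.498 FPKM, -1.47, adjusted p = 2.64e-06).

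Protein phosphatase 2A combines a catalytic, a scaffold and a regulatory subunit, and its widest brain differences were in genes of regulatory B subunits. PPP2R2B, a B subunit of neurons, had 66.7, 69.9 and 67.3 FPKM in brain, 6.82, 3.25 and 7.71 FPKM in stomach and 0 to 2.76 FPKM elsewhere. Brain was above each other tissue (5.09 ± 0.23, adjusted p = 5.08e-14), and stomach was called higher (1.23 ± 0.23, adjusted p = 0.000327). Stomach also held neuron markers at a sum of 32.5 to 44.7 FPKM, with NEFL, RBFOX3 and SLC17A7 of the 10 listed at 0, and their part in the stomach result was not tested. PPP2R2C, a further neuronal B subunit, had 16.3, 18.2 and 14.6 FPKM in brain from 186 reads and was listed at 0 in all 21 other libraries (4.12 ± 0.10, adjusted p = 3.42e-18). Its difference was built into its passing the filter. The more general B subunit PPP2R2A had 91.8, 92.1 and 97.8 FPKM in brain and 72.9, 76.8 and 68.4 FPKM in stomach, and was called higher in brain (1.23 ± 0.22, adjusted p = 8.46e-05).

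Of the 14 tested genes of protein phosphatase 2A, 6 were called higher in brain (against 23.9% of all genes), 3 of them above each other tissue (against 13.2%), and 1 lower (against 10.5%), with a median brain difference of 0.89. The scaffold PPP2R1A had 59.4, 78.2 and 73.7 FPKM in brain and 13.7 to 38.9 FPKM elsewhere (1.56 ± 0.21, adjusted p = 2.42e-06). The catalytic subunit PPP2CA was nearly even, with 799, 789 and 775 FPKM in brain, the highest tissue, and 432 to 763 FPKM elsewhere (0.53 ± 0.07, adjusted p = 5.66e-07). PPP2CB, almost identical to it in protein sequence, did not pass the F test (adjusted p = 0.0728). The B56 subunits PPP2R5A and PPP2R5B had opposite patterns. PPP2R5A had 279, 345 and 311 FPKM in liver and 59.8, 75.1 and 59.03 FPKM in brain, and was called higher in liver (1.19 ± 0.11, adjusted p = 4.37e-08) and lower in brain (-1.39 ± 0.11, adjusted p = 9.9e-10). PPP2R5B had 0, 1.54 and 10.2 FPKM in liver and 69.5, 71.6 and 77.5 FPKM in brain, and was called lower in liver (-3.01 ± 0.51, adjusted p = 7.06e-05) and higher in brain (2.24 ± 0.51, adjusted p = 0.000935). PPP2R3A was called higher in heart (4.697, 4.35 and 1.19 FPKM, 1.55, adjusted p = 0.000341), although kidney, lung and stomach libraries, at up to 1.89 FPKM, overlapped with heart.

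Phosphatases 4, 5 and 6 had 9 tested genes, of which 3 were called higher in brain (against 23.9% of all genes), 2 in spleen (11.5%) and 1 in liver (9.81%), and 1 was called lower in brain (10.5%). With 9 genes, these counts lie near the shares of all genes. PPP4R3A, a regulatory subunit of phosphatase 4, had 264, 322 and 264 FPKM in liver, 243, 219 and 271 FPKM in spleen and 67.02, 63.1 and 50.7 FPKM in heart. Liver was called higher (1.16 ± 0.11, adjusted p = 3.56e-08) and heart lower (-1.37 ± 0.11, adjusted p = 4.11e-09). Its near copy PPP4R3B had 140.5, 132 and 134 FPKM in spleen and 24.8, 27.7 and 32.6 FPKM in heart, with spleen called higher (1.21 ± 0.12, adjusted p = 1.25e-07) and heart lower (-1.34, adjusted p = 2.7e-08), and reads alike in both copies may have been split. PPP6R3, a phosphatase 6 subunit, was called lower in brain (10.4, 13.5 and 13.5 FPKM, -1.06, adjusted p = 7.06e-05), with a difference under 1 in size without brain replicate 1 (-0.94, adjusted p = 0.00181). PPP4C, the phosphatase 4 catalytic subunit, was called higher in spleen (20.8, 15.9 and 22.4 FPKM, 1.59, adjusted p = 0.0419), lost without any 1 of 10 of the 24 libraries (1.49 to 1.73, adjusted p = 0.0512 to 0.136), and it did not pass the F test (adjusted p = 0.0854).

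Outside brain, shares of the 93 genes called lay closer to those of all genes than the 45.2% against 23.9% called higher in brain. In aorta 8 were called higher (8.6%, against 9.58%) and 9 lower (9.68%, against 8.19%), and 3 were above each other tissue (against 1.64%). In heart 8 were called higher (8.6%, against 6.41%) and 14 lower (15.1%, against 17.4%), with 4 above each other tissue (against 1.64%). None of those 4 would have passed the filter without heart. Kidney had 7 called higher (7.53%, against 9.77%), 11 lower (11.8%, against 8.12%) and PDE1A above each other tissue (1, against 1.69% of all genes). PDE1A passed the filter through kidney alone. Liver had 6 called higher (6.45%, against 9.81%) and 22 lower (23.7%, against 17.3%), and lung 10 higher (10.8%, against 11.9%) and 3 lower (3.23%, against 3.64%). Spleen had 9 called higher (9.68%, against 11.5%) and 14 lower (15.1%, against 13.5%), and stomach 5 higher (5.38%, against 7.65%) and 5 lower (5.38%, against 5.87%). RGS12 alone was above each other tissue in lung (1.27% of all genes were), and no member was in liver, spleen or stomach, where 1.92%, 1.5% and 1.2% of all genes were. Some of these counts rested on 1 library. Kidney had 4 called higher without kidney replicate 2, spleen 5 without spleen replicate 3 and stomach 3 without stomach replicate 1. Lung had 1 called lower without lung replicate 2, and stomach 8 without stomach replicate 3. A further gene was above each other tissue in lung without lung replicate 2 (2 in all), and 1 in spleen without lung replicate 2 or spleen replicate 2.

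Part of these splits depends on how libraries are scaled. Median-ratio scaling moved the median difference of all genes from -0.02 to 0.08 in brain and from -0.44 to -0.21 in heart. It went from -0.05 to -0.19 in kidney, 0.15 to -0.02 in lung, -0.14 to -0.22 in spleen and -0.08 to -0.18 in stomach. In heart the split became 13 higher and 4 lower, in place of 8 and 14. Kidney had 5 higher and 15 lower, spleen 6 and 16, and stomach 4 and 7 under that scaling, while brain had 43 and 4. The lower heart calls of CALM2, GNB1, PPP3CA, PPP4R3A, PPP4R3B and PPP1R12A, the lower brain call of PPP6R3, the higher kidney calls of GNA13 and PPP1R14B, the higher spleen calls of PPP1R14B, PPP4C and PRKAB1, and the higher lung calls of NPR1, GRK5 and PPP1R9B were lost under it, each with its direction kept. Because brain enters the mean of the other 7 tissues, calls of lower in the remaining tissues also rest in part on brain. With brain left out of that mean, 5 genes were lower in aorta, 6 in kidney, 9 in spleen, 2 in stomach and none in lung, and 10 were higher in stomach. Of the lower calls given above, those lost that way, besides CAMK2N2 in stomach, were PPP3CA in heart (-0.84), PDE2A in lung (-0.83) and PDE6D in kidney (-1.59, adjusted p = 0.071). Many lower calls not given above were lost too. CAMK2B went from -1.42 to -0.28 in aorta, kidney and liver, and lost its calls in lung and spleen. ADCY8 went from -1.19 to -0.76 in aorta, kidney, liver, spleen and stomach. PPP2R2B lost its lower calls in aorta, liver and spleen, and RGS7BP in kidney, liver, lung and spleen. Higher calls lost were GNG5 in stomach (0.93), PPP1R14B in kidney (1.41, adjusted p = 0.0707) and spleen (1.38, adjusted p = 0.0584), PPP4C in spleen (1.43, adjusted p = 0.0788) and PRKAB1 in spleen (0.87), each among the calls given above.

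**Figure D5:**
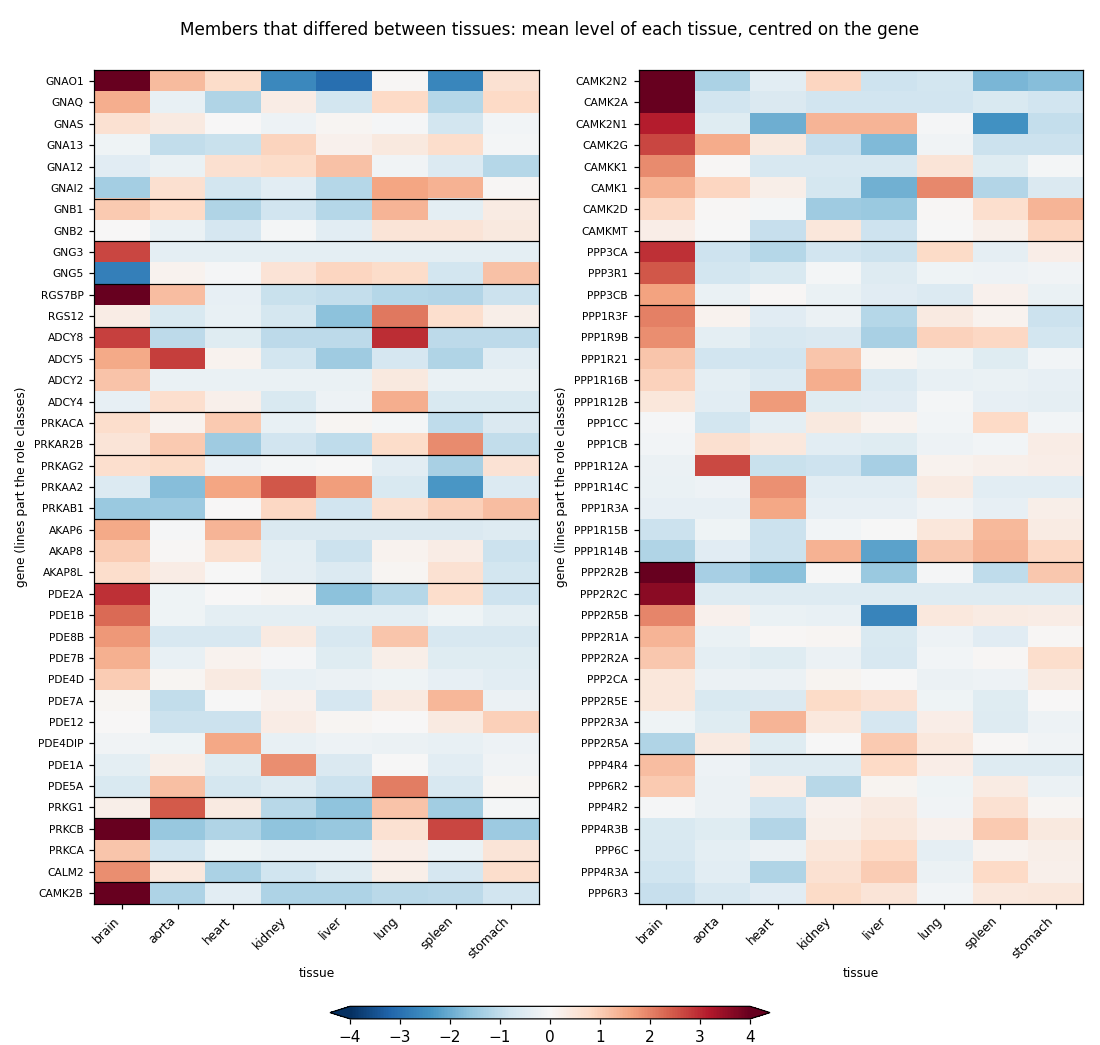
Mean log2(FPKM + 1) of each tissue (columns, brain first) for 78 members that differed between tissues by the F test (rows), after subtracting the mean of the 8 tissues for that gene, so that red is above and blue below the gene's own mean. Lines part the role classes, from G protein subunits at the top left to phosphatases 4 to 6 at the bottom right, and the brain column is red for all 3 calcineurin genes.

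The 14 tested genes that did not pass the F test were spread over the roles. The 5 of them with the highest mean level were PPP2CB, PPP2R3C, AKAP10, PPP4C and PDE6D. PPP2R3C had 11.5 to 17.6 FPKM in brain and 4.34 to 28.4 FPKM elsewhere (F test adjusted p = 0.672), and AKAP10 3.81 to 14.9 FPKM in brain and 2.29 to 21.3 FPKM elsewhere. Against the mean of the other tissues, 17 of the 93 genes were called nowhere. Zero values were common, with 55 of the 93 genes at 0 in at least 1 library. In simulated data of 4260 genes, 100 were changed 2-fold and 100 were changed 4-fold, in brain alone and with a preset spread. Of these, 11% and 91% were called. In the real data 1019 genes were called higher in brain, and the adjusted p depends on how many genes differ. These shares therefore need not hold for the members, and a member without a call may still differ by 2-fold.

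Other genes of these pathways, outside the symbols of the rule, were counted in 7 lists. Of 77 listed genes, 47 were in the table, 29 were tested and 27 differed between tissues. In brain 8 of the 29 were called higher (against 23.9% of all genes) and 5 lower (10.5%), in aorta 6 (9.58%) and 2 (8.19%), in lung 8 (11.9%) and 0 (3.64%), and in spleen 8 (11.5%) and 4 (13.5%). Liver had 4 higher (9.81%) and 5 lower (17.3%), heart 2 (6.41%) and 6 (17.4%), kidney 1 (9.77%) and 3 (8.12%), and stomach 1 (7.65%) and 4 (5.87%). The lists were small, 2 to 9 tested genes each. DGKB passed the filter through brain alone, and RYR2 and NFATC2 would not have passed without heart, GAP43 without brain or GRK5 without lung.

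Receptors and enzymes upstream of the kinases had their own tissues. The natriuretic peptide receptor genes NPR1 and NPR2, which make cGMP, were both called higher in aorta (1.44 and 1.62, adjusted p = 0.000102 and 0.00293) and lung. NPR1 had 3.95, 3.27 and 1.13 FPKM in aorta and 2.03, 2.36 and 1.46 FPKM in lung, and PRKG1 and PDE5A were called higher in aorta and lung as well. NPR2 was also called higher in liver (1.15, adjusted p = 0.0207), where PRKG1 was called lower (-1.84). The NPR2 liver call was lost without liver replicate 2 (0.94, adjusted p = 0.123) and without liver replicate 3 (1.19, adjusted p = 0.0561). Of 5 tested phospholipase C genes, PLCB4 had 68.3, 87.7 and 81.4 FPKM in aorta, above each other tissue (3.28 ± 0.22, adjusted p = 5.61e-10). PLCL2, an inactive relative, had 7.98, 5.33 and 14.2 FPKM in spleen and was called higher there (2.10 ± 0.26, adjusted p = 2.21e-06). Brain, with 3.28, 5.13 and 4.69 FPKM of PLCL2, was called higher as well (1.14 ± 0.26, adjusted p = 0.00103).

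Calcium release channels differed by tissue. RYR2, the ryanodine receptor of heart muscle, had 24.5, 17.3 and 26.04 FPKM in heart and 0 to 2.99 FPKM elsewhere (4.22 ± 0.19, adjusted p = 1.1e-12). ITPR3, an IP3 receptor of epithelia, had 18.02, 11.9 and 12.6 FPKM in stomach and 0 to 4.83 FPKM elsewhere (3.01 ± 0.23, adjusted p = 5.3e-09). RYR2 is also one of the cardiomyocyte markers. Among 3 tested diacylglycerol kinases, which remove the activator of protein kinase C, DGKG had 7.71, 7.51 and 8.71 FPKM in brain and was above each other tissue there (2.87, adjusted p = 8.49e-08). DGKB had 1.796, 5.75 and 1.76 FPKM in brain and 0 to 0.286 FPKM elsewhere, a difference built into its passing the filter. PKIA, an inhibitor of protein kinase A, had 79.6, 85.1 and 107 FPKM in heart and 37.3, 41.95 and 33.8 FPKM in brain. Both were called higher, heart by 4.11 ± 0.35 (adjusted p = 1.1e-08) and brain by 2.69 ± 0.35 (adjusted p = 1.25e-06), and PKIA was listed at 0 in liver. GAP43, a calmodulin-binding protein of growing axons, had 2.42, 6.55 and 6.62 FPKM in brain (2.33 ± 0.20, adjusted p = 3.08e-09).

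Receptor kinases and arrestins, which switch off G protein coupled receptors, were called higher in spleen in 3 of 4 tested genes (against 11.5% of all genes) and higher in brain in none (against 23.9%). With 4 genes, the brain count cannot be set apart from the share of all genes. GRK6 had 12.9, 18.1 and 8.81 FPKM in spleen and was above each other tissue there (2.54 ± 0.46, adjusted p = 0.000182), where leukocyte markers were also highest, and their part in the result was not tested. GRK5 was called higher in lung (0.319, 1.48 and 4.28 FPKM, 1.05, adjusted p = 0.00454), a call lost without lung replicate 3 (0.53, adjusted p = 0.123). Downstream targets were mixed, with 1 of 9 higher in brain (against 23.9% of all genes) and 4 lower (against 10.5%). RAPGEF4, a guanine nucleotide exchange factor that cAMP activates directly, had 108, 141 and 127 FPKM in brain and 116, 111 and 81.4 FPKM in liver, and was called higher in both (4.66 and 4.33, adjusted p = 5.92e-11 and 1.06e-09). MYLK, the calmodulin-dependent kinase of smooth muscle myosin that opposes myosin phosphatase, had 14.1, 24.3 and 25.9 FPKM in aorta, 1.82, 3.996 and 2.95 FPKM in stomach and 2.69, 11.8 and 4.78 FPKM in lung. Aorta was above each other tissue for it (3.31 ± 0.29, adjusted p = 2.75e-08), as for PPP1R12A.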

How the data were processed

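The table held FPKM values of 7493 genes in 24 libraries, deposited by the authors as 1 column per library, not pooled. Per the labels' protocols, extraction used TRIzol and library preparation a VAHTS Universal V10 kit. Per the submitters' processing notes, fastp, HISAT2 and HTSeq were used with the human build GRCh38.p13. For versions, annotation and strand setting: not given in the sources used here. Mouse reads counted on human genes favour conserved stretches, so an FPKM value can be far below the level of the mouse transcript, and near-identical copies can exchange reads.

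Groups were taken from the labels. Whole reads were recovered from the FPKM steps for 100% of the 7493 genes (relative tolerance 1e-06), and the recovered totals were 0.999 to 1.00 times the depth given by the steps. In simulated data, recovery was exact for 89.0% of 6834 genes and for 98.8% of 4013 genes with at least 20 reads. Reads carry no molecular identifiers, so read numbers describe counting depth alone. A gene entered the fit when 3 or more libraries reached 1 FPKM (4260 genes), and values were fitted as log2(FPKM + 1) with limma 3.58.1 (R 4.3.3), with 1 mean per tissue, all 24 libraries and an intensity trend. Contrasts set a tissue against the average of the other 7 and against each of them, with Benjamini-Hochberg adjustment over the 4260 genes within a contrast. Differences on this scale understate the change of low genes. The fit was tested on simulated data, in which no unchanged gene was called. As an alternative, limma voom on the recovered reads called 1138 of 4260 genes higher in brain, against 1019 with FPKM. Further alternatives were other pseudocounts and filters, median-ratio scaling, a replicate block, a mean without brain and leaving out each library.

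Members and lists were chosen with earlier results of these data known. Named genes were CAMK2A, the 10 members with the largest called difference above the others in brain and the 3 in each other tissue, the 3 with the largest called difference below in brain and 1 in each other tissue, the member with the smallest F test p in each role class, the 5 of highest mean level that did not pass the F test, all members of near-identical gene groups, and the 2 smallest F test p in each further pathway list. Other members were added after their values were seen, so that each role is described, and 1 member is not reported here by name. Promoter sequences are from RefSeq on GRCm38.p6, with exons of GENCODE M21. Python 3.11.15, numpy 2.4.6, pandas 2.3.3 and matplotlib 3.10.9 were used.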

Additional observations from a re-analysis of the deposited data

How the results depend on the processing

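Of 179 called differences of members, 135 were called whichever library was left out, and 96 lost the call with a pseudocount of 5, which shrinks differences of low genes. Over 7861 refits of 255 differences, 382 lost the call, 9 gained it and 0 reversed. Of 789 counts of members under the alternatives, 744 were within 1.5 times the reported count. For the others the cause was not tested, beyond the smaller set of genes under the stricter filter and the shrinkage above.

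With a pseudocount of 5, members called higher numbered 26 in brain, 4 in aorta, 2 in heart, 2 in kidney, 6 in lung, 5 in spleen and 2 in stomach. Members called lower then numbered 2 in aorta, 8 in heart, 2 in kidney, 6 in liver, 0 in lung, 6 in spleen and 3 in stomach, and 0 were above each other tissue in heart, kidney or lung. With a pseudocount of 0.1, 12 were lower in stomach, 1 was above each other tissue in aorta and 0 in lung. With a minimum of 5 FPKM, 2 were higher in heart and 4 in kidney, and 0 were above each other tissue in either. Median-ratio scaling gave 13 higher and 4 lower in heart. With voom on the recovered reads, 14 were lower in brain, 15 in aorta, 9 in lung, 28 in spleen and 9 in stomach. With the mean taken without brain, 10 were higher in stomach, and lower calls numbered 5 in aorta, 6 in kidney, 0 in lung, 9 in spleen and 2 in stomach.

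Leaving out 1 library gave 37 to 43 higher in brain and 20 to 23 above each other tissue there. Higher calls ranged from 4 to 8 in kidney, 5 to 9 in spleen and 3 to 6 in stomach, lower calls from 1 to 3 in lung and 5 to 8 in stomach, and members above each other tissue from 1 to 2 in lung and 0 to 1 in spleen. The replicate block left 42 members higher in brain and gave 80 that differed between tissues, against 79. Under it 3 of the 255 differences lost the call, among them PPP4C in spleen (adjusted p = 0.0512), and no count of members moved beyond 1.5 times. Deviations of libraries with the same replicate number correlated at -0.0589 to 0.128 (median 0.0241), with 2 of 84 pairs over 0.1. For libraries with different numbers the median was -0.0173. Correlations between different organs cannot show whether libraries of the same number came from the same animal. At 193900 to 642307 reads per library, 44 members stayed under the filter and were not tested.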
